A study of Mus musculus with 17 samples.

Results

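Platelet marker mRNAs were followed as fragments in mouse plasma from the MHU-1 mission, through 9 genes chosen by name: Ppbp, Pf4, Nrgn, Itga2b, Gp1bb, Gp9, Tubb1, Treml1 and Clec1b. The 9 genes are 9 of the 49585 listed for each library, and all of them had reads. All mice were wild type C57BL/6J aged 13 weeks. The MG, AG and GC groups held 6, 6 and 5 libraries. MG animals floated aboard the ISS in microgravity, AG animals were housed there on a rotating platform that gave artificial 1-G, and GC animals were ground controls. RNA came from 50 μl of plasma cleared of cell debris, and a kit for small RNAs was used because the RNA was degraded. Per the study's methods, blood was spun at low speed to give plasma and the thawed plasma was spun once more to clear debris. Such spins take out many platelets, so these libraries show what remained in plasma, not circulating platelet numbers.

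Platelets have no nucleus, and the mRNA they carry comes from the megakaryocytes of bone marrow and lung that shed them. Their granules hold chemokines, their membrane carries receptors for von Willebrand factor, fibrinogen, podoplanin and thrombin, and a ring of microtubules keeps them disc-shaped. When platelets break or stay behind in plasma, their mRNA joins cell-free RNA (cfRNA), so the amount of it depends on how blood was drawn and spun as well as on the animal. In bulk plasma RNA, fewer platelets or platelet fragments and less RNA per platelet cannot be told apart.

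Depth was low. The libraries held 84657 to 277682 counts, and 4 genes (Tmem38b, Polr2m, Lars2 and Rn18s-rs5, called dominant below) accounted for 86.9% to 91.7% of the AG counts, for 70.6% to 83.5% of the MG counts and for 76.9% to 83.1% of the GC counts. Rn18s-rs5 is a ribosomal RNA sequence by its name, and reads on the 4 genes may stand for ribosomal RNA, which was not tested, so percents of all counts and scaling by total counts move with them. A pair of scales is therefore used: the percent of counts outside the dominant genes, and counts scaled to a common library size by TMM (TMM-normalized CPM), a scaling that sets most genes level between libraries. Differences are on the log2 scale, errors are SD unless SE is named, and levels are compared between genes only per length, while counts given beside a gene say how many reads its values rest on. A set of 4 libraries stood apart in the summed share of the 9 markers, namely AG replicates 5 and 6, MG replicate 6 and GC replicate 4, and results are given with and without them.

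The chemokine genes Ppbp and Pf4 are neighbours on mouse chromosome 5 (GRCm38, GENCODE M21). Ppbp lies at chr5:90768518-90770063 and Pf4 at chr5:90772435-90773383, both on the plus strand. Promoters are shown for these genes, whose ratio to each other is followed across the libraries, and for Clec1b (chr6:129397297-129409335, plus strand), which has the most GATA matches of the 9. Each sequence runs from 250 bases before to 50 bases after the gene start, from RefSeq (GRCm38.p6). Capitals mark matches on either strand to motifs of the GATA and ETS factor families, which act in megakaryocytes. The GATA motif was spelled AGATAA, or else spelled AGATAG, or else spelled TGATAA, or else spelled TGATAG. The ETS motif was spelled AGGAAG, or else spelled CGGAAG.
Ppbp, chr5:90768268-90768567, plus strand: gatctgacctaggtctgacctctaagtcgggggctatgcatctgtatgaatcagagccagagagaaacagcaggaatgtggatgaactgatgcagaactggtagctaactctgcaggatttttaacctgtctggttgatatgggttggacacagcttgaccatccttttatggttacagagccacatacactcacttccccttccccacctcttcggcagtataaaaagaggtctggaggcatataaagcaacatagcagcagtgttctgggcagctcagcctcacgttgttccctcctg
Pf4, chr5:90772185-90772484, plus strand: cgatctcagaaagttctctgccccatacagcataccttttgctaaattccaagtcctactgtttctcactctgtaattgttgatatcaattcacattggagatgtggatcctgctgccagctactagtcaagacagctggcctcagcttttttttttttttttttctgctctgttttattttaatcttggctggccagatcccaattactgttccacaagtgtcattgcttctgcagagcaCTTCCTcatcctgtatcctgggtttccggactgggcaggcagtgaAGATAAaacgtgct
Clec1b, chr6:129397047-129397346, plus strand: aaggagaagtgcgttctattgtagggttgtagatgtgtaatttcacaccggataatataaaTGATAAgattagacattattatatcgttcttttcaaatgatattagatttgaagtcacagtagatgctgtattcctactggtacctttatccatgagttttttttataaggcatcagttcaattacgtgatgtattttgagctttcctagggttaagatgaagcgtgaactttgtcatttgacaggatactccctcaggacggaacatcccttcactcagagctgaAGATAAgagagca
A GATA motif was present in 3 of the 9 promoters (Pf4, Gp1bb and Clec1b) and in 29.76% of 32851 RefSeq mouse promoters of the same length. An ETS motif was present in 5 of 9 (Pf4, Itga2b, Gp1bb, Gp9 and Tubb1) and in 46.47% of all. Both were present in 2 of 9 (Pf4 and Gp1bb) and in 12.61% of all. The Ppbp window held neither.

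Ppbp, the precursor of a neutrophil-attracting chemokine and an abundant platelet transcript, supplied 4963 of the marker counts, or 68.6%. Per length, its level was the highest of the 9 in 17 of 17 libraries, with a median RPKM (reads scaled to gene length and to all mapped reads) of 73.5. Its TMM-normalized CPM had a lowest, median and highest value of 193, 1374 and 1839 in AG and of 756, 1684 and 2122 in MG. In GC replicates 1 to 5 it was 2562, 2398, 2246, 916 and 2399. Apart from GC replicate 4, every GC library lay above every AG and MG library.

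Pf4, platelet factor 4, is the heparin-binding chemokine of the same granules. Its TMM-normalized CPM had a lowest, median and highest value of 29.7, 89.7 and 155 in AG and of 61.1, 222.6 and 276.7 in MG. In GC it was 243, 144.6, 147.7, 66.8 and 206.5. Apart from AG replicate 2 (155), the AG libraries lay below every MG library other than MG replicate 6. Read counts behind these values ran from 2 in AG replicate 5 to 60 in MG replicate 2, and the median RPKM over the 17 libraries was 8.81.

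Itga2b codes for the alpha subunit of the fibrinogen receptor, which also marks megakaryocytes (chr11:102453297-102470122, minus strand). With 244 counts in all, it ran from 0 to 185 TMM-normalized CPM in AG (median 59.1) and from 38.2 to 137 in MG (median 64.0). The GC values were 111, 77.6, 70.9, 28.6 and 103. No read fell on Itga2b in AG replicate 6, and the groups overlapped throughout.

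Gp1bb and Gp9 code for small subunits of the von Willebrand factor receptor. Gp9 (chr6:87778072-87779768, plus strand) had 1 to 21 counts a library. Its TMM-normalized CPM spanned 14.9 to 83.4 in AG (median 60.4) and 14.5 to 69.5 in MG (median 42.5), and was 48.6, 74.1, 29.5, 38.2 and 59.6 in GC. Gp1bb (chr16:18620317-18622403, minus strand) was the weakest marker, with 46 counts in all and none in 5 libraries, and 12 of those counts lay in GC replicate 3. It spanned 0 to 43.5 in AG (median 10.6) and 0 to 23.4 in MG (median 6.29), and was 13.9, 17.6, 70.9, 0 and 3.97 in GC. In a library without a read, 3 counts is the limit that a count of 0 allows, which is 13.7 to 44.6 TMM-normalized CPM in the 5 libraries without a Gp1bb read. Exons of Gp1bb overlap those of Sept5, and exons of Clec1b those of Clec9a, on the same strand, so the assignment of reads is uncertain. The files list 2 counts for Sept5 and 5 for Clec9a over the 17 libraries.

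Clec1b codes for a podoplanin receptor that activates platelets, and Treml1 for a receptor stored in granules and exposed on activation. Clec1b had 326 counts. It spanned 0 to 133 TMM-normalized CPM in AG (median 88.6) and 7.63 to 178 in MG (median 122.6), and was 132, 134, 65.0, 47.7 and 187 in GC. Treml1 (chr17:48359916-48367176, plus strand) had 75 counts, 0 to 13 a library. It spanned 0 to 25.8 in AG (median 14.9) and 7.23 to 30.9 in MG (median 21.3), and was 55.5, 45.9, 11.8, 28.6 and 47.7 in GC. For Treml1, 3 of the 5 GC libraries lay above all AG and MG libraries and GC replicates 3 and 4 lay among them.

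Tubb1 codes for the tubulin of the platelet microtubule ring (chr2:174450695-174457882, plus strand). It spanned 0 to 113 TMM-normalized CPM in AG (median 61.9) and 30.9 to 119 in MG (median 68.4), and was 125, 98.8, 70.9, 19.1 and 83.4 in GC. Nrgn codes for neurogranin, a calmodulin-binding protein of neurons that platelets also hold as mRNA (chr9:37544492-37552904, minus strand). With 752 counts it was the marker with the most counts after Ppbp. It spanned 14.9 to 304.5 in AG (median 218), 168 to 346 in MG (median 252.5), and was 257, 353, 236, 172 and 425 in GC. Because Nrgn is also a neuronal gene, 8 brain genes were examined beside it: they had 54 counts together, and Snap25, Gfap, Syp and Slc17a7 were at 0 in all 17 libraries.

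**Figure D1:**
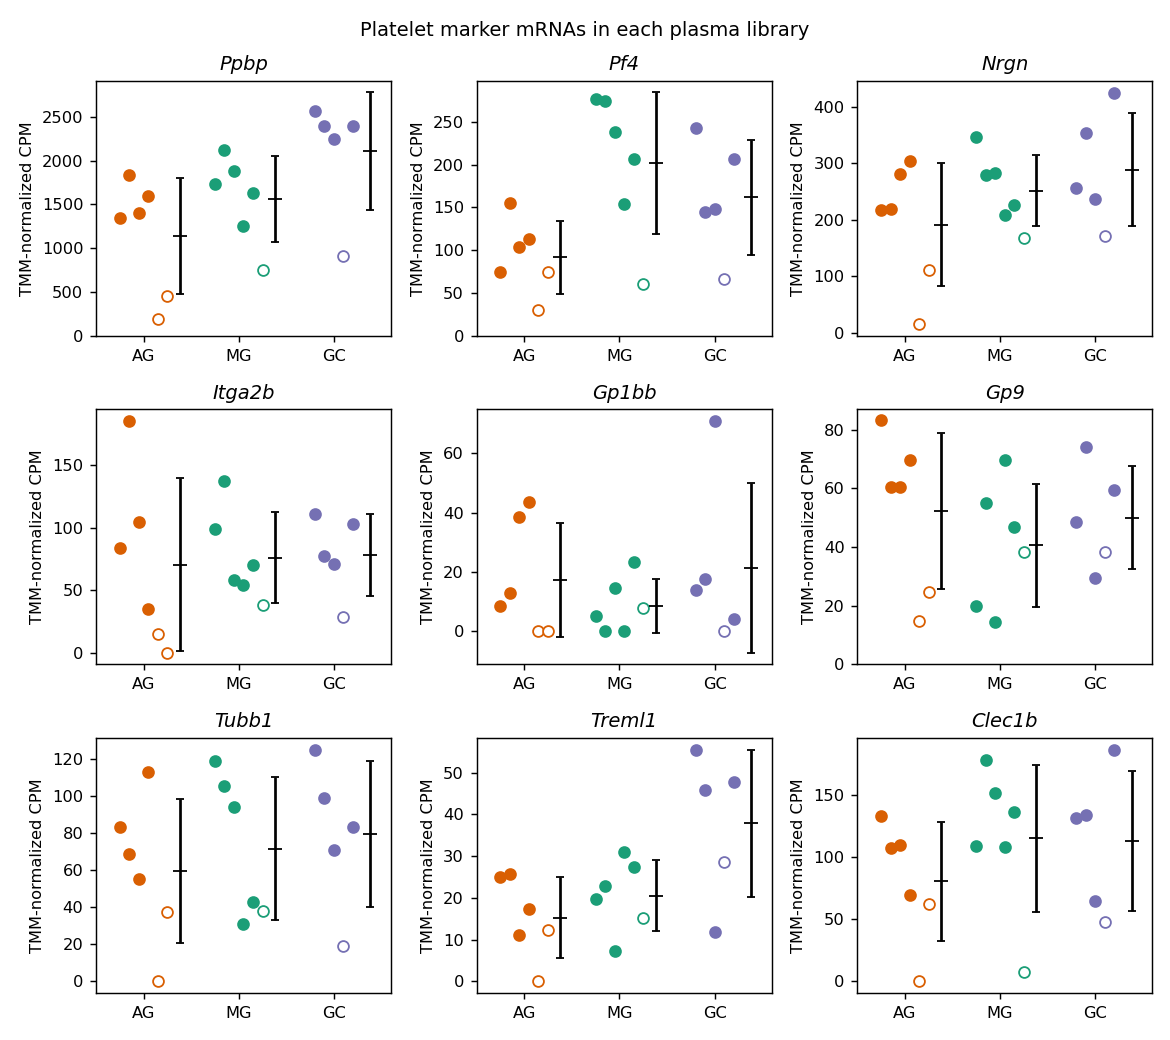
TMM-normalized CPM of each marker (linear axes that differ between panels) in the 6 AG, 6 MG and 5 GC libraries. Points are libraries in the order of their replicate numbers, black marks are the mean with SD, and open points are AG replicates 5 and 6, MG replicate 6 and GC replicate 4, which lie at or near the bottom of their group for Ppbp, Nrgn and Itga2b.

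The 9 markers together made up 0.177% to 2.65% of the counts outside the dominant genes, a 15-fold range. The share was 1.20% ± 0.78 in AG (n = 6), 1.49% ± 0.75 in MG (n = 6) and 1.99% ± 0.93 in GC (n = 5). The lowest, median and highest were 0.177%, 1.40% and 2.15% in AG and 0.339%, 1.69% and 2.30% in MG. The GC libraries held 2.62%, 2.34%, 1.94%, 0.420% and 2.65%. The means differed by about 1 SD or less, and every group had at least 1 library below 0.5% and at least 1 above 1.9%.

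The lowest 4 libraries were AG replicate 5 (0.177%), MG replicate 6 (0.339%), AG replicate 6 (0.360%) and GC replicate 4 (0.420%). The next was MG replicate 4 at 0.926%, which is 2.21 times the highest of the 4. Of the 4, 2 were AG, 1 was MG and 1 was GC. Their total counts were 115515 to 223189, within the range of the other libraries. Their counts outside the dominant genes were 10182 to 43691, and the lowest of these, in AG replicate 5, lay below the 15732 to 44415 of the other 13. Their TMM factors were 0.484 to 0.587, below the 0.606 to 1.89 of the other 13. Of the 272 genes of the fit that the factors rest on, 7 were markers and 24 were further platelet genes. These libraries were picked from the marker reads themselves, and their low marker level is a description without a test. Without them the mean share was 1.67% ± 0.38 in AG (n = 4), 1.72% ± 0.55 in MG (n = 5) and 2.39% ± 0.33 in GC (n = 4). As a percent of all counts, dominant genes included, the group means over all libraries were 0.125% in AG, 0.350% in MG and 0.419% in GC. The ratio of the MG to the AG mean was thus 1.24 outside the dominant genes, 1.03 there without the 4 libraries and 2.79 over all counts, and that of the AG to the GC mean was 0.60 outside the dominant genes, 0.70 without the 4 libraries and 0.30 over all counts.

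Spread between mice of a group was wide, and on the TMM scale its size relative to the mean was like that of other well-read genes. The coefficient of variation of TMM-normalized CPM within groups was 42.8% for Ppbp, 43.1% for Pf4 and 41.6% for Nrgn, and reached 117.5% for Gp1bb. Its median was 58.0% over the 272 genes that passed the filter on low counts. For Treml1 it was 51.7%. The variance of raw counts within groups was 107 times the mean for Ppbp and 2.03 times for Treml1, with a median of 7.12 over the 272 genes, a ratio that also grows with depth and with the mean count.

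Levels of the markers moved together across libraries. Over the 17 libraries, Spearman's rho between the share of one marker and the summed share of the other 8 was 0.91 for Ppbp, 0.84 for Tubb1 and Clec1b, 0.83 for Itga2b, 0.82 for Pf4, 0.79 for Nrgn and 0.76 for Treml1. It was 0.56 for Gp9 and 0.36 for Gp1bb, the latter resting on 46 counts. Between single markers, rho ranged from 0.12 (Gp1bb and Treml1) to 0.85 (Nrgn and Tubb1), with a median of 0.66 over 36 pairs. These values share library, depth and denominator, and are given as a description.

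Most other platelet lists followed the same order of libraries. Of 60 further platelet and megakaryocyte genes found in the files, 55 had a read. Over the genes with a read in 12 or more libraries, the median rho with the summed marker share was 0.71 for adhesion receptors (8 genes), 0.66 for activation receptors and enzymes (8 genes), 0.68 for granule cargo (10 genes) and 0.72 for cytoskeleton and signalling (12 genes), but 0.41 for megakaryocyte transcription and granule biogenesis (2 genes). The median over all 1105 genes read that widely was 0.12. It was 0.09 for red cell genes (7 genes), -0.01 for leukocyte genes (2 genes) and -0.54 for liver genes (3 genes). The 2 leukocyte genes had opposite values, 0.41 for Lyz2 and -0.43 for Cd74. Within adhesion receptors, Cd9, a tetraspanin of the platelet membrane, had a rho of 0.90, while Cd36, a scavenger receptor shared with endothelium and macrophages, had -0.36. Cd36 was singled out after its values were seen. Cd36 had 10 of its 44 counts in the 4 libraries of lowest marker share.

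**Figure D2:**
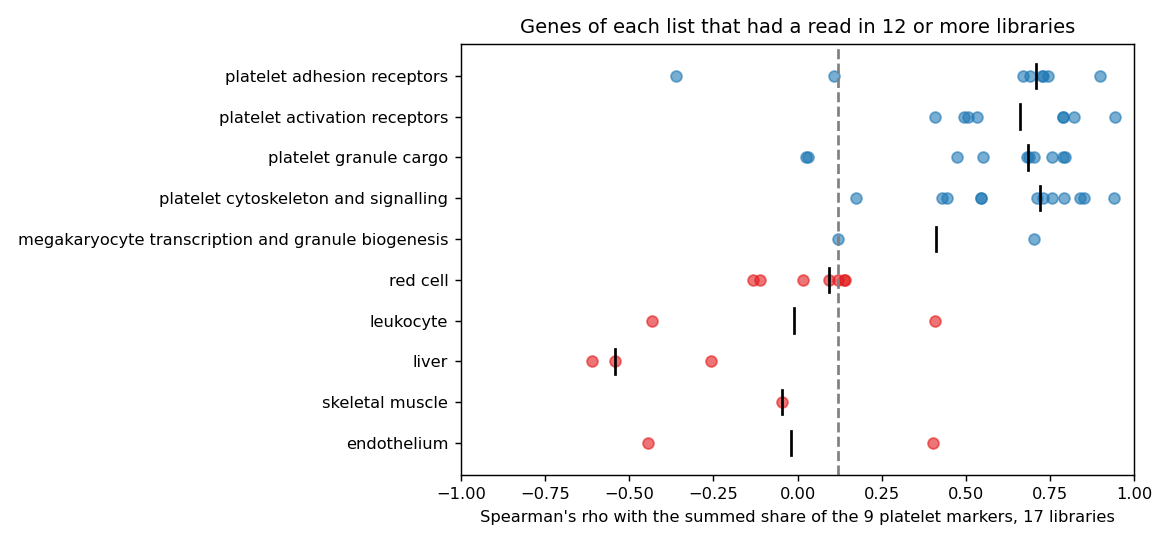
Spearman's rho over 17 libraries (x axis, no unit) between each gene's share of counts outside the dominant genes and the summed share of the 9 markers, by gene list (y axis). Points are genes, black bars are list medians and the dashed line is the median of all 1105 genes, 0.12. Platelet lists (blue) have medians of 0.66 to 0.72 apart from megakaryocyte transcription and granule biogenesis (0.41, 2 genes), and lists of other cell types (red) have medians of 0.09 or below.

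The 5 genes whose share was most like the summed marker share were Hist1h2bc (rho 0.96), Alox12 (0.94), Tmsb4x (0.94), Lsm12 (0.91) and Actb (0.91). Ctla2a, with 2686 counts, tied with Actb (both 0.9093). Alox12 is the platelet lipoxygenase, Tmsb4x codes for the actin-binding thymosin beta and Actb for cytoplasmic actin. Hist1h2bc is a histone gene and Lsm12 codes for an RNA-associated protein. Tmsb4x had more counts than Ppbp, 8336, and ran from 15 to 943 counts a library. Alox12 and Hist1h2bc had no read in the lowest library for each and up to 42 and 119 in the highest.

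Lists of other cell types were summed in the same libraries. The red cell list, 9 of 12 found in the files and all 9 with reads, made up 5.36% to 14.6% of the counts outside the dominant genes in AG, 0.817% to 8.74% in MG and 2.51% to 13.2% in GC. Of the 4 libraries of low marker share, AG replicate 5 had a red cell share of 10.9%, while AG replicate 6 (5.36%), MG replicate 6 (0.817%) and GC replicate 4 (2.51%) had the lowest of their groups. The liver list, 12 of 12 with reads, had 0.0139% to 1.46% in AG, 0.0199% to 1.14% in MG and 0.0487% to 0.0717% in GC. Its maxima were in AG replicate 6 (1.46%) and MG replicate 6 (1.14%), both low in platelet markers, while AG replicate 5 had 0.206% and GC replicate 4 had 0.0487%. The leukocyte list, 11 of 14 with reads and Camp, Elane and Cd3e at 0, stayed between 0.0487% and 0.171% in all libraries. Endothelial genes, 8 of 8 with reads, made up 0.00608% to 0.121%, and skeletal muscle genes, 8 of 9 with reads and Mylpf at 0, 0.00299% to 0.152%. The brain list, 4 of 8 with reads, was lower in the 4 libraries of low marker share, with 3 counts and a mean of 0.00172%, against 51 counts and a mean of 0.0135% in the other 13, where the 9 markers had 0.324% and 1.91%. The part of red cell, liver and brain RNA in the marker shares was not tested.

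**Figure D3:**
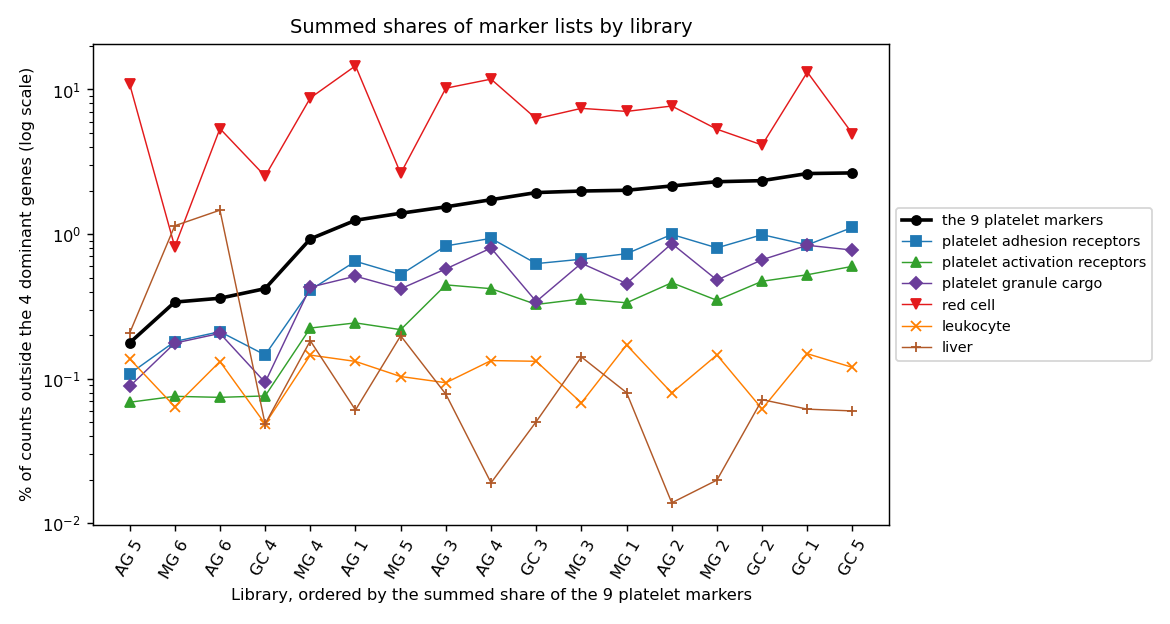
Summed share of 7 marker lists, in percent of the counts outside the 4 dominant genes (log scale), in each of the 17 libraries, ordered from left to right by the summed share of the 9 platelet markers. The 9 markers rise from 0.177% to 2.65% and the adhesion receptor, activation receptor and granule cargo lists mostly rise with them, while the red cell, leukocyte and liver lists do not.

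MG was compared with AG to ask what the lack of gravity changed among mice that had all flown. Of the 7 markers kept by the filter, 6 were fitted higher in MG, with a median log2 fold change of 0.37 against 0.17 over all 272 genes. That difference from all genes was absent in a fit on every gene with at least 5 reads, which holds all 9 markers (0.34 against 0.35), and without the 4 libraries of low share (0.12 against 0.12). None passed an adjusted p of 0.05 in edgeR's quasi-likelihood test, where 0% of the 272 genes did, and 1 marker, Pf4, had an unadjusted p under 0.05, as did 13.2% of the genes. Pf4 averaged 202 ± 83 in MG and 92.0 ± 42.5 in AG (TMM-normalized CPM, n = 6 each), a log2 fold change of 1.09 (SE 0.43, edgeR adjusted p = 0.25). It was the 1 marker past the study's criterion of unadjusted p under 0.05 and a fold over 1.5, which 13.2% of the genes met. Here that criterion was put on edgeR's quasi-likelihood p of the 272 genes, while the study put it on another test, in CLC Genomics Workbench. For Ppbp the log2 fold change was 0.45 (SE 0.45) and for Nrgn 0.37 (SE 0.45), about 1 SE or less from no difference.

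An exact permutation test on every gene with at least 5 reads, which takes in all 9 markers, gave an unadjusted two-sided p of 0.0346 for Pf4 and above 0.05 for the other 8, with adjusted p = 1 for each. For Pf4 the exact permutation p was 0.18 with shares of the counts outside the dominant genes (log2 difference 0.86) and 0.0649 with rank sums. Of the 6270 genes tested, 2.42% were under 0.05. Gp1bb and Treml1 were too low for the filter, and had permutation p-values of 0.452 and 0.366. Scaling by total counts alone, without TMM, raised Pf4 to a log2 fold change of 2.18 (adjusted p = 0.0229 by edgeR, where 17.6% of the 272 genes were called) while the median of all genes moved with it to 1.21. The share taken by the dominant genes, which enters such totals, was higher in every AG library than in any MG library. With the summed level of other platelet genes as a covariate, a covariate chosen after seeing the data, the Pf4 difference was 1.04 (SE 0.31, adjusted p = 0.0741 by edgeR) and that of Ppbp 0.47 (SE 0.21, adjusted p = 0.268). Without the 4 libraries of low share, which were picked on the markers' own levels, Pf4 differed by 1.06, given as a description. Leaving out 1 library at a time, the permutation result for Pf4 was lost without AG replicate 1, 5 or 6 or MG replicate 1, 2, 3 or 5, and without MG replicate 6 Clec1b joined it (exact permutation p = 0.00866 for Pf4 and 0.0346 for Clec1b). DESeq2 called 0 markers at an adjusted p of 0.05 in MG against AG, MG against GC and AG against GC, where it called 3.31%, 0% and 2.94% of the genes. At an unadjusted one it called 1, 0 and 1 markers and 15.8%, 5.51% and 15.8% of the genes.

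MG was compared with GC to set the flight mice without artificial gravity beside ground mice. The 7 markers had a median log2 fold change of -0.16 against -0.00 over all genes, 5 lower and 2 higher, and over genes with at least 5 reads the medians were -0.34 for the 9 markers and 0.22 for all genes. None passed an adjusted p of 0.05 in edgeR (0% of the 272 genes did), and no marker had an unadjusted p under 0.05. None met the study's criterion either, where 4.41% of the genes did. Among these 7, the lowest was Ppbp, at 1564 ± 488 in MG and 2104 ± 673 in GC, a log2 fold change of -0.43 (SE 0.46, edgeR adjusted p = 0.994). In the fit on genes with at least 5 reads, Gp1bb (-1.33, SE 0.85) and Treml1 (-0.99, SE 0.74) were lower than Ppbp (-0.54, SE 0.51). No marker was under 0.05 in the exact permutation test, as against 2.46% of the genes tested. Without the 4 libraries of low share the fitted log2 fold change of Ppbp was -0.49, given as a description because its own reads are most of the share that picked those libraries. Leaving out GC replicate 4 alone, the library of lowest Ppbp in that group, gave Ppbp (exact permutation p = 0.00952), and leaving out GC replicate 3 gave Treml1 (exact permutation p = 0.019).

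AG was compared with GC to set flight at 1-G beside the ground. Of the 7 markers, 6 were fitted lower in AG, with a median log2 fold change of -0.45 against -0.21 over all genes, and over genes with at least 5 reads the medians were -0.61 for the 9 markers and -0.06 for all genes. None passed an adjusted p of 0.05 in edgeR, where 1.47% of the genes did, and none had an unadjusted p under 0.05 or met the study's criterion, where 11.8% of the genes did each. Among these 7, the widest difference was in Ppbp, at 1140 ± 659 in AG and 2104 ± 673 in GC, a log2 fold change of -0.88 (SE 0.47, edgeR adjusted p = 0.421). With the covariate for other platelet genes it was -0.70 (SE 0.22, adjusted p = 0.127 by edgeR). In the fit on genes with at least 5 reads Treml1 differed more, by -1.33 (SE 0.77) against -0.94 (SE 0.51) for Ppbp. In the exact permutation test Treml1 was the 1 marker under an unadjusted 0.05 (log2 difference -0.87, p = 0.039, adjusted p = 1), as against 2.46% of the genes tested. Its exact permutation p was 0.0909 with shares of the counts outside the dominant genes and 0.0519 with rank sums. Treml1 averaged 15.3 ± 9.7 in AG and 37.9 ± 17.6 in GC. Without the 4 libraries of low share, the fitted log2 fold change of Ppbp was -0.69, again a description. Leaving out 1 library at a time, the result for Treml1 was lost without AG replicate 3, 5 or 6 or GC replicate 1, 2, 4 or 5, and without GC replicate 4 Ppbp (exact permutation p = 0.00952) and Pf4 (exact permutation p = 0.0286) took its place. Each group serves in 2 of the 3 comparisons, so their results are not independent of one another.

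**Figure D4:**
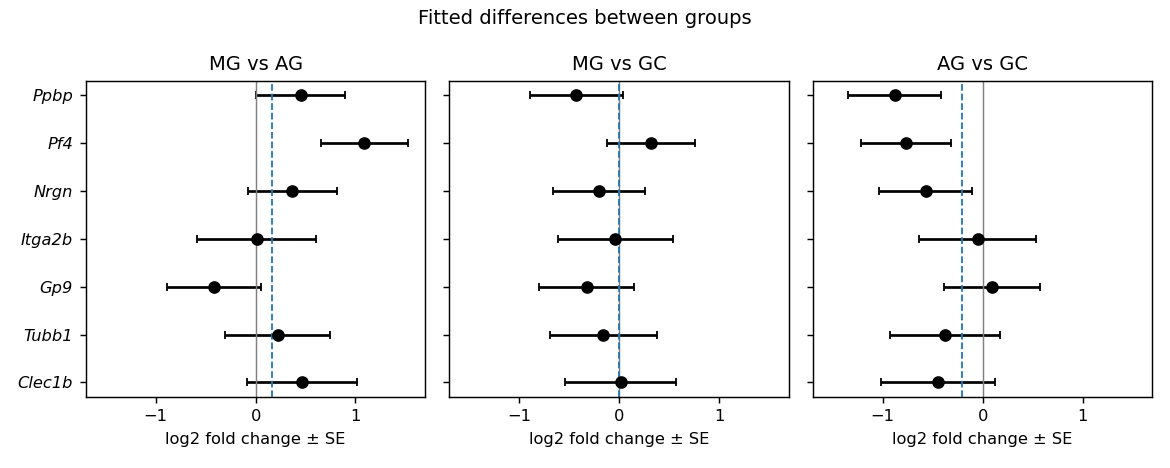
Fitted log2 fold changes (x axis) with SE of the 7 markers kept by the filter, in the 3 comparisons, all 17 libraries in one edgeR fit. The dashed line is the median of all 272 genes. Most markers lie within 1 SE of that line, and Pf4 in MG against AG lies farthest from it at 1.09.

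The proportions of the 9 markers within their sum were compared between libraries. A chi-square of their counts over the 17 libraries was 260.3 on 128 degrees of freedom, a ratio of 2.03, where counting error of independent reads gives a ratio near 1. The ratio was 1.33 within AG, 1.57 within MG and 2.11 within GC.

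The proportions of the chemokine genes and of the von Willebrand factor receptor genes gave the lowest p-values between groups. Ppbp was 66.3% ± 4.5 of marker counts for AG, 66.6% ± 1.7 for MG and 71.6% ± 3.0 for GC. Set against the other 8 markers, it was lower than in GC both in MG (exact permutation p = 0.00866) and in AG (exact permutation p = 0.026). Pf4 was 6.61% ± 2.99 of marker counts for AG, 8.25% ± 1.56 for MG and 5.43% ± 0.97 for GC, higher in MG than in GC (exact permutation p = 0.013), while MG against AG gave an exact permutation p of 0.286. Gp9 was 3.46% ± 1.19 in AG and 1.84% ± 0.74 in GC (exact permutation p = 0.026). Gp1bb, on 16 counts in AG and 10 in MG, was 0.75% ± 0.84 and 0.39% ± 0.40 (exact permutation p = 0.0476). These are the 5 of 27 tests (9 markers, 3 pairs) with an unadjusted two-sided p under 0.05, they were added after the counts were seen, and they carry no adjustment. The tests compared log2 ratios to the other 8 markers, with a fraction of a read added to the counts, not the printed percents. AG replicate 5, with 0 Gp1bb reads among 18 marker counts, thereby took the highest Gp1bb ratio of the AG and MG libraries. The p-value of Gp1bb thus rests in part on a library without a read of it.

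The ratio of Ppbp to Pf4 counts needs no scaling between libraries. It was 17.9, 11.9, 13.5, 14.2, 6.50 and 6.17 in AG replicates 1 to 6, 6.27, 7.73, 7.88, 8.15, 7.91 and 12.4 in MG replicates 1 to 6, and 10.5, 16.6, 15.2, 13.7 and 11.6 in GC replicates 1 to 5. In MG, 5 of 6 libraries lay below every GC library, and MG replicate 6, with 8 Pf4 counts, lay among them. In AG, replicates 1 to 4 lay at the GC level and replicates 5 and 6, with 2 and 6 Pf4 counts, at the MG level. The mean log2 ratio was 0.70 lower in MG than in GC (difference -0.70, SE 0.18), and the difference ranged from -0.82 to -0.62 as each library was left out. Between MG and AG the difference was -0.40 (SE 0.29), ranging from -0.56 to -0.26, and between AG and GC it was -0.30 (SE 0.28). Without the 4 libraries of low share these became -0.91 (SE 0.14) and 0.098 (SE 0.20), given as a description. Those libraries were picked on a share made up mostly of Ppbp reads. Among them are AG replicates 5 and 6 and MG replicate 6, whose ratios go against the MG to AG difference. Exact two-sided permutation tests gave p = 0.013 for MG against GC (0.00794 to 0.0286 as each library was left out), p = 0.203 for MG against AG and p = 0.381 for AG against GC. The ratio was chosen after its values were seen, so these 3 p-values, which carry no adjustment, are not independent evidence of a difference.

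**Figure D5:**
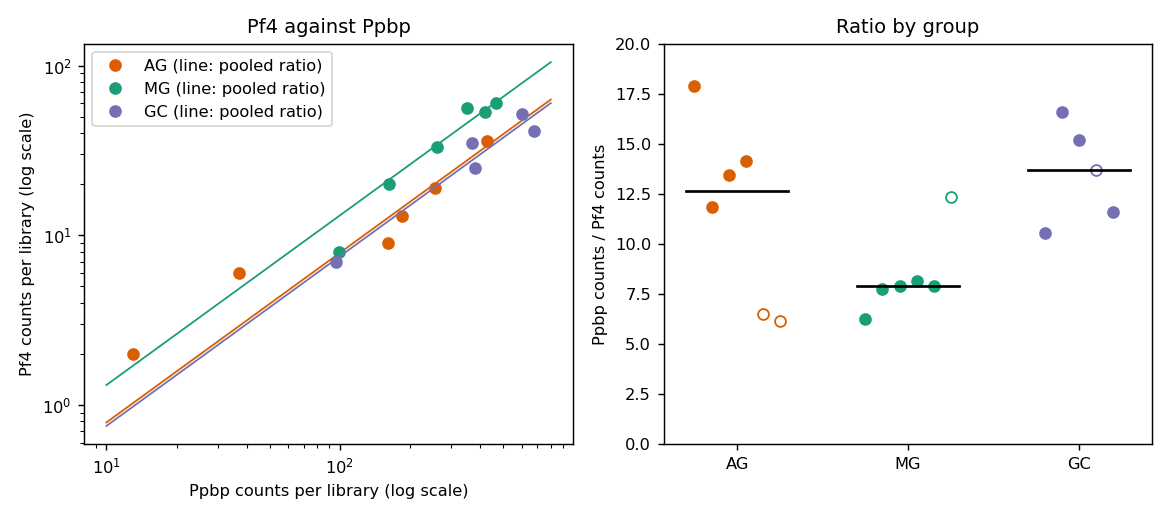
Left, Pf4 counts against Ppbp counts per library (log axes), with lines at the ratio of pooled counts in each group, 12.7 in AG, 7.63 in MG and 13.3 in GC. Right, the ratio in each library with the group median as a bar and open points for the 4 libraries of low share. In MG, 5 of the 6 libraries lie at or below 8.15.

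Other platelet genes gave no call between groups. Of the 24 that passed the filter, 0 had an adjusted p under 0.05 in edgeR in any of the 3 comparisons, and DESeq2 gave the same count. Over all 272 genes, in MG against AG, MG against GC and AG against GC, edgeR called 0%, 0% and 1.47%. DESeq2 called 3.31%, 0% and 2.94%. At an unadjusted p under 0.05 both tests gave 0 of the 24 too. There edgeR had 13.2%, 4.41% and 11.8% of the 272 genes in the same comparisons, and DESeq2 15.8%, 5.51% and 15.8%. The exact permutation test took in 54 genes of the 5 lists, and none was under an unadjusted 0.05 in MG against AG, where 2.42% of all genes were. In MG against GC, where 2.46% of all genes were, 2 were lower in MG, the fibrinogen receptor beta subunit Itgb3 and vinculin (Vcl). In AG against GC, also with 2.46% of all genes, 4 were lower in AG, Myl9, P2ry1, F13a1 and Flna. The adjusted p was 1 for each of these 6 genes, which are named after their values were seen. The transcription factor gene Fli1 was higher (21.4 ± 12.8 against 7.06 ± 8.23 TMM-normalized CPM, exact permutation p = 0.0476, adjusted p = 1, 40 counts in all).

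Of the 2 most-read genes of each list, none apart from Fli1 in AG against GC had an exact permutation p under an unadjusted 0.05. Cd9 averaged 580.7 ± 286.1 in AG, 620.9 ± 161.2 in MG and 705 ± 273.5 in GC. Thbs1, the granule adhesion protein thrombospondin, averaged 249.9 ± 164.9, 229.8 ± 67.7 and 279.9 ± 125.1. P2ry12, the ADP receptor that clopidogrel blocks, averaged 92.0 ± 68.8, 108.5 ± 32.1 and 155 ± 77, with a log2 fold change of -0.69 (SE 0.53) in AG against GC. Tmsb4x averaged 2137 ± 1367, 2888 ± 750 and 2974 ± 807, and Gng11, a G protein gamma subunit, 385 ± 205, 492 ± 137 and 527 ± 177. The integrin gene Itga6, the adhesion receptor gene Cd226, the chaperone gene Clu and the granule-docking gene Rab27b ran from 0 to 60, 0 to 44, 0 to 42 and 0 to 14 counts a library, and their groups overlapped.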

How the data were processed

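Plasma cfRNA of 17 mice was measured, 1 library per mouse. With CLC Genomics Workbench and the mm10 genome, the authors mapped the reads and deposited, per gene, raw counts and RPKM scaled to gene length and mapped reads. The kit for small RNAs gives fragments of mRNA, and how reads shared between overlapping genes were counted is not given in the sources used here. Groups came from the treatment labels. The deposited counts of 272 genes kept by filterByExpr were fitted in edgeR 4.0.16 (R 4.3.3) after TMM scaling, with all 17 libraries in one quasi-likelihood fit and Benjamini-Hochberg adjustment over all genes. An exact two-sided permutation test of mean log2 TMM-normalized CPM (prior count 2, NumPy 2.4.6) was run on 6270 genes with at least 5 reads. Its smallest p is 0.00216 for 6 against 6 and 0.00433 for 6 against 5. Both tests were tested on simulated data. Deposited RPKM was used for levels between genes and in an alternative with limma 3.58.1, and DESeq2 1.42.0 was another. The common biological coefficient of variation was 0.574. For 579 genes a count of 0 stood beside an RPKM above 0 in a library, and no marker was among them. No 2 libraries were duplicates. Named genes were the 9 markers, the 2 most-read genes of each other platelet list and the 5 most like the summed share. Members and lists were chosen with earlier results of these data known. Intervals of counts cover counting error only. The value of 1 listed gene is not reported here.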

Additional observations from a re-analysis of the deposited data

Results flagged for a closer look

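A pair of marker values stood far from the others of their group by Dixon's test. Ppbp in GC replicate 4 was 916.3 TMM-normalized CPM, where the other 4 GC libraries lay between 2246 and 2562. Gp1bb in GC replicate 3 was 70.91 TMM-normalized CPM, on 12 counts, where the others of the group lay between 0 and 17.6. The test was run on 30 groups of libraries and marks about 1 in 20 by chance, or 1.5 of these 30. The cause of either value was not tested.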

How the results depend on the processing

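The number of markers called by edgeR stayed at 0 in MG against GC and AG against GC under every alternative run, leaving out each library in turn included (0 to 0). In MG against AG it was 0 to 0 with each library left out, and 1 (Pf4) with total counts only, which called 17.6% of the 272 genes, and 1 with the study's criterion, which 13.2% met. Scaling by total counts moved the median of all genes to 1.21 in MG against AG, 0.07 in MG against GC and -1.11 in AG against GC. The number of markers under an unadjusted permutation p of 0.05 ranged, with each library left out, from 0 to 2 in MG against AG, 0 to 1 in MG against GC and 0 to 2 in AG against GC, beside 2.22% to 3.17%, 2.01% to 3.52% and 1.66% to 3.3% of all genes. It was 0 with rank sums and 0 with shares outside the dominant genes in MG against AG and in AG against GC, beside 1.95% to 2.38% of all genes, and with total counts only it was 2 and 4, beside 6.49% and 4.48% of all genes. Leaving out the 4 libraries of low share, chosen after seeing the data and on the markers' own levels, gave 1 in MG against GC (2.25% of all genes), a count that is no evidence of a difference. The ratio of MG to AG mean marker shares was 2.79 over all counts and 1.88 by RPKM against 1.24 outside the dominant genes, and that of AG to GC was 0.30, and 0.32 by RPKM, against 0.60.

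Of the fitted log2 fold changes, those of Itga2b, Gp9, Clec1b, Tubb1, Pf4 and Nrgn changed sign somewhere, none past a threshold. Itga2b in MG against AG was -0.074 without dominant genes, -0.11 with genes of 5 reads, -0.040 with genes of 1 read, -0.11 in edgeR's exact test and -0.27 without the 4 libraries, and -0.26 to 0.57 with each library left out. Itga2b in MG against GC was 0.054 with total counts, 0.013 in a fit of 2 groups, 0.31 with the platelet covariate and -0.30 to 0.12 with each library left out. Itga2b in AG against GC was 0.052 without dominant genes, 0.18 without the 4 libraries, 0.14 with the covariate and -0.60 to 0.18 with each library left out. Gp9 in MG against AG was 0.53 with total counts. Gp9 in AG against GC was -0.84 with total counts, -0.072 with genes of 5 reads, -0.14 with genes of 1 read, -0.071 in the exact test, -0.55 in limma on RPKM and -0.061 to 0.28 with each library left out. Clec1b in MG against GC was -0.082 with RLE size factors, -0.11 with genes of 5 reads, -0.15 with genes of 1 read, -0.11 in the exact test, -0.082 in DESeq2, -0.24 in limma on RPKM and -0.16 to 0.28 with each library left out. Tubb1 in MG against GC was 0.23 with the covariate and -0.38 to 0.061 with each library left out. Pf4 in MG against GC was -0.11 in limma on RPKM, and Nrgn was 0.0019 with the covariate. The cause of these changes was not tested.

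The correlation of deviations from group means between same-numbered libraries ran from -0.472 to 0.593. For replicate 1 it was 0.464 in MG against AG, 0.593 in MG against GC and 0.483 in AG against GC. In MG against AG it was 0.349, 0.264, 0.0162, -0.0864 and 0.255 for replicates 2 to 6. In AG against GC it was -0.422 and -0.472 for replicates 4 and 5. Whether libraries of the same number share a source of variation was not tested. The replicate block left the number of called markers at 0 in each comparison, and Itga2b was 0.068 in MG against GC and 0.046 in AG against GC with it. Depth limits Gp1bb and Treml1, with 46 and 75 counts, and libraries with 10182 to 44415 counts outside the dominant genes.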
